A study of Mus musculus with 6 samples.

Results

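The genes described here are 33 genes of mural cells, the pericytes and smooth muscle cells that wrap the endothelium of brain vessels. They were chosen by symbol, and each of the 33 matched a single Ensembl ID among the 53465 genes of the count matrix. They were grouped by role into 14 genes used as pericyte markers, 3 regulators shared by mural cells, 7 contractile genes (Acta2, Tagln, Myh11, Cnn1, Myl9, Mylk and Des), 4 further genes of the actin thin filament and 5 other smooth muscle genes. Of the 33 genes, 30 had enough reads to be tested, while Tagln, Pln and Map3k7cl did not.

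Pericytes sit in the basement membrane of capillaries and depend on platelet-derived growth factor B, which endothelial cells release and the receptor Pdgfrb on the pericyte binds. Smooth muscle cells surround arteries and arterioles and contract when myosin light chain kinase phosphorylates the regulatory light chain of myosin. Both kinds of mural cell adjoin the endothelium, share Notch3 signalling and are recognised in brain by sets of genes such as those listed here.

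Total RNA of endothelial cells was sequenced from whole cortex, in a study named for the translatome of these cells in acute epilepsy. The mice were males, 8 to 12 weeks old, and in both groups every mouse carried tie2-Cre, ai9 and rpl22HA/HA. Tie2-Cre is active in endothelium and in part of the blood lineage and is not a driver for mural cells, ai9 makes cells with Cre fluoresce, and rpl22HA/HA lets ribosomes of cells with Cre be tagged. The control group received phosphate buffered saline (PBS), and the second group received pentylenetetrazol (PTZ), a convulsant that blocks GABA-A receptors. Each group held 3 libraries, numbered 1, 2 and 4 in the labels and called PBS-1, PTZ-1 and so on below. Neither the dose, nor the time of collection, nor the step that isolated the cells or their tagged ribosomes is stated in the labels. The labels also do not say whether libraries came from different mice. The p-values thus measure how far these libraries spread, and part of that spread may be technical.

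Gene counts summed to between 11107481 and 15406967 per library. As a check of the labelled cell type, 17 endothelial markers summed to 22727 to 30380 CPM in PBS and 21518 to 36107 CPM in PTZ. The 14 pericyte genes summed to 242 to 428 CPM in PBS and 254 to 723 CPM in PTZ. Markers of other brain cells were present too. In PBS and PTZ, astrocyte markers summed to 2057 to 5829 and 2534 to 6243 CPM, and microglia markers to 3365 to 4315 and 2315 to 3402.5 CPM. Oligodendrocyte markers summed to 1237 to 1512 and 1303 to 1504 CPM, and neuron markers to 346 to 797 and 341 to 643 CPM. The lists differ in size. CPM here are TMM-scaled counts per library size, in the usual unit of that name, and TMM scaling sets the libraries to a common level over most genes. Fold changes are log2 values, positive where PTZ was higher, each with its standard error (SE), from edgeR's quasi-likelihood test with Benjamini-Hochberg adjustment over the 13768 genes tested. Means are given with their SD over n = 3 libraries.

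Mural genes had reads in all 6 libraries, at levels from 0.0625 CPM (Heyl in PBS-1) to 1070 CPM (Cald1 in PTZ-4). Of the 33, 31 had a higher mean in PTZ than in PBS. In bulk RNA, more cells of a type and more RNA per cell cannot be told apart. The 3 PTZ libraries were not alike. PTZ-1 and PTZ-4 held the high values, and PTZ-2 lay within the range of the PBS libraries for most of the genes. No gene of the set passed an adjusted p of 0.05, nor did any of the 13768 genes tested (0% called higher and 0% lower), while DESeq2 called 53 genes higher and 23 lower. Among the 30 tested mural genes, 28 had a positive log2 fold change, where 52.7% of all tested genes did, and the median was 0.93 beside 0.03 over all genes. At an unadjusted p under 0.05 stood 8 mural genes, all higher in PTZ, where 3.83% of all tested genes were called higher and 3.38% lower. Every PTZ library lay above every PBS library for 3 of the 30, Higd1b, Kcnj8 and Notch3, a share of 10% beside 7.3% of all tested genes, and 0 of the 30 had every PTZ library below (7.04% of all tested genes). The counts cover only genes that passed the filter on low reads, and Heyl passed it through its PTZ libraries.

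**Figure D1:**
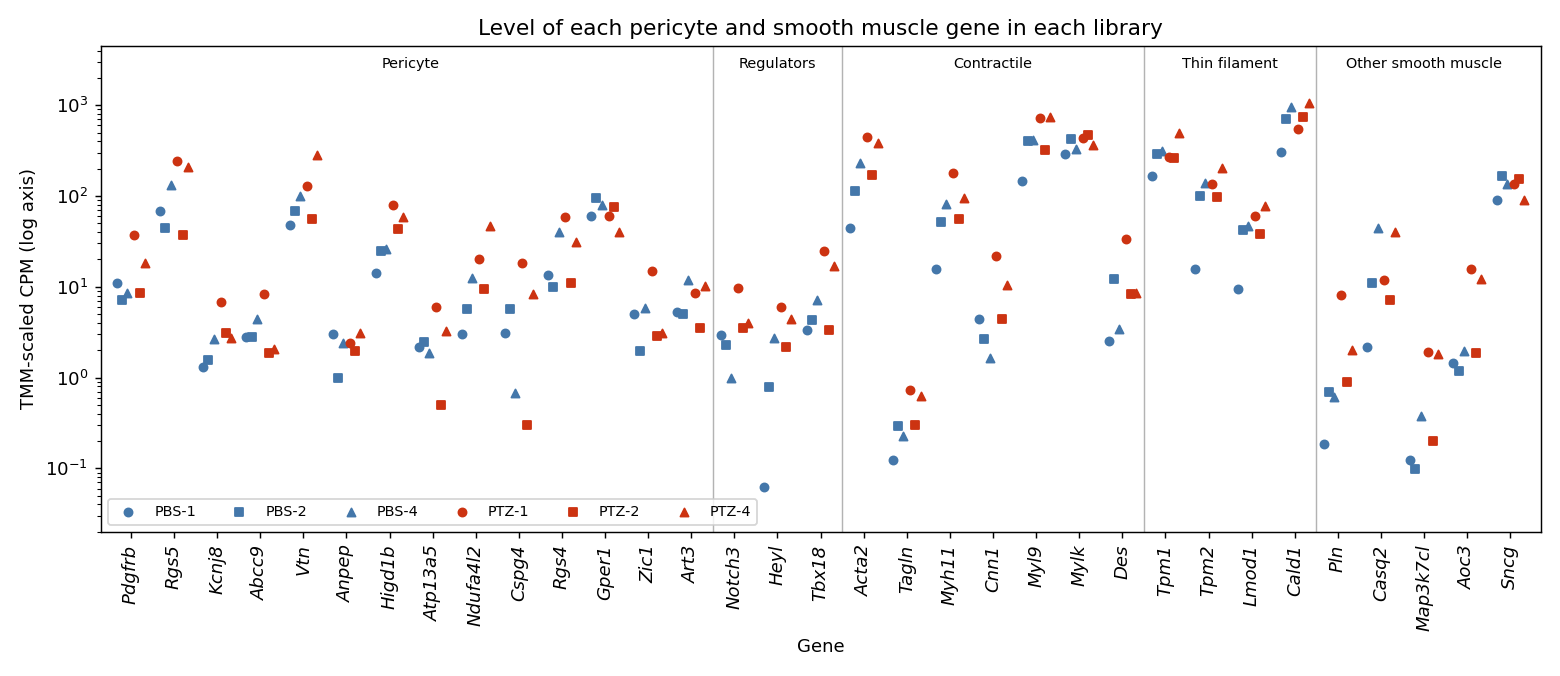
TMM-scaled CPM of each of the 33 genes in each of the 6 libraries, on a log axis, with PBS in blue, PTZ in red and the marker shape giving the replicate number. Genes are grouped by role. For Acta2 the PTZ circle and triangle, PTZ-1 at 441 and PTZ-4 at 387 CPM, lie above all others, while the PTZ-2 square at 172 CPM lies among the PBS libraries.

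Among the pericyte genes, Higd1b was the one that differed most steadily. It encodes a small mitochondrial membrane protein and is used as a marker of brain pericytes. Higd1b (ENSMUSG00000020928, protein coding, chr11:102835849-102838040, plus strand, GRCm38) stood at 14.4, 24.6 and 26.3 CPM in PBS-1, PBS-2 and PBS-4. In PTZ-1, PTZ-2 and PTZ-4 it stood at 79.6, 43.5 and 58.1 CPM. The groups did not overlap, and the lowest PTZ library was above the highest PBS library. Mean levels of 21.7 ± 6.45 CPM (PBS) and 60.4 ± 18.1 CPM (PTZ) gave 1.48 on the log2 scale (SE 0.32). With an adjusted p of 0.426 in edgeR it did not pass over all genes. It had the smallest p of the set, and DESeq2 called it (log2 fold change 1.47, adjusted p = 0.0136). Over the alternatives run, its adjusted p ranged from 0.0048 in edgeR without the filter on low reads to 0.918 in edgeR without PBS-1, with log2 fold changes of 1.23 to 1.62 when 1 library was left out.

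Among the surface proteins of pericytes, Pdgfrb and Cspg4 were highest in PTZ-1 and PTZ-4, and Anpep was not. Pdgfrb, the receptor for platelet-derived growth factor B, stood at 10.99, 7.11 and 8.54 CPM in the PBS libraries and at 37.6, 8.54 and 18.4 CPM in PTZ. PTZ-1 and PTZ-4 were above every PBS library and PTZ-2 was within them (log2 fold change 1.28, SE 0.51, edgeR adjusted p = 0.676). Cspg4, the NG2 proteoglycan, which oligodendrocyte precursors also carry, stood at 3.12, 5.73 and 0.680 CPM in PBS and at 18.4, 0.298 and 8.39 CPM in PTZ (1.52, SE 1.10). PTZ-2 held the lowest Cspg4 level of all 6 libraries, on 3 reads, and PTZ-1 the highest. The 7 markers of those precursors summed to 3.36 to 4.43 CPM in PBS and to 14.7, 3.67 and 9.14 CPM in PTZ-1, PTZ-2 and PTZ-4, the same libraries being high. Nearly all of that was Pdgfra, the list's 1 tested member, which fibroblasts also make, and the other 6 markers, Olig1, Olig2 and Sox10 among them, had 0 to 7 reads per library. The part of these cells in the Cspg4 level was not tested. Anpep, the aminopeptidase CD13, lay between 0.987 and 3.07 CPM in every library with no order by group (0.22, SE 0.77).

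Rgs5 and Rgs4 encode regulators that shorten signalling through G proteins, and Rgs5 is the classic pericyte member of that family. Rgs5 stood at 69.1, 44.1 and 131 CPM in PBS and at 244, 36.8 and 209 CPM in PTZ. PTZ-2 was the lowest of all 6 libraries and the other PTZ libraries were the highest, so the mean difference (log2 fold change 1.003, SE 0.59) came with an SD of 111 CPM around the PTZ mean of 163 CPM. Rgs4, which neurons also make, overlapped between the groups (0.67, SE 0.62).

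Vtn encodes vitronectin, a matrix protein that brain pericytes secrete. It stood at 48.1, 67.8 and 99.4 CPM in PBS and at 128, 55.5 and 285 CPM in PTZ, with PTZ-4 the highest and PTZ-2 among the PBS libraries (1.12, SE 0.50, edgeR adjusted p = 0.690). Ndufa4l2, a mitochondrial protein related to a respiratory chain subunit, stood at 2.998, 5.63 and 12.5 CPM in PBS and at 20.1, 9.43 and 47.3 CPM in PTZ. It had the largest positive fold change of the 14 pericyte genes (1.87, SE 0.65), again with PTZ-2 inside the PBS range.

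Kcnj8 and Abcc9 encode the pore (Kir6.1) and the regulatory subunit (SUR2) of the ATP-sensitive potassium channel of mural cells. They are neighbouring genes on mouse chromosome 6, both on the minus strand (chr6:142564837-142571614 and chr6:142587862-142702315). Kcnj8 stood at 1.31, 1.58 and 2.65 CPM in PBS and at 6.73, 3.08 and 2.75 CPM in PTZ, with no overlap but a narrow gap (1.18, SE 0.74, edgeR adjusted p = 0.760). Abcc9 stood at 2.81, 2.76 and 4.46 CPM in PBS and at 8.42, 1.89 and 2.07 CPM in PTZ. Only PTZ-1 was high for Abcc9, and PTZ-2 and PTZ-4 were the lowest of the 6 libraries (0.30, SE 0.77). Without PTZ-1 its log2 fold change was -0.75.

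The other pericyte genes did not separate the groups. Atp13a5, a cation-transporting ATPase, ranged from 0.496 to 5.93 CPM (0.57, SE 0.89), and the transcription factor gene Zic1 from 1.97 to 15.1 CPM (0.70, SE 0.76). Art3, of the ADP-ribosyltransferase family, had a log2 fold change of 0.02 (SE 0.58). Gper1, a G protein-coupled receptor for oestrogens, stood at 60.2, 94.6 and 79.8 CPM in PBS and at 60.1, 75.6 and 40.4 CPM in PTZ (-0.41, SE 0.28, edgeR adjusted p = 0.773). Gper1 was the pericyte gene with a negative value. Its lowest library was PTZ-4, a library in which Rgs5, Vtn and Ndufa4l2 were high.

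The 3 shared regulators had positive fold changes of similar size at low levels. Notch3, the Notch receptor of mural cells, stood at 2.94, 2.27 and 0.983 CPM in PBS and at 9.81, 3.47 and 3.94 CPM in PTZ. Its groups did not overlap (1.47, SE 0.74, edgeR adjusted p = 0.702). Heyl, a transcriptional repressor and target of Notch3, stood at 0.0625, 0.790 and 2.72 CPM in PBS and at 6.002, 2.18 and 4.44 CPM in PTZ, with PBS-4 above PTZ-2 (1.82, SE 1.08). The PBS-1 value of Heyl rests on 1 read. Tbx18, a T-box factor that marks adult mural cells, stood at 3.37, 4.34 and 7.18 CPM in PBS and at 24.8, 3.38 and 16.8 CPM in PTZ (1.60, SE 0.66, edgeR adjusted p = 0.690). PTZ-1 and PTZ-4 were the highest libraries for all 3 regulators.

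The contractile genes encode smooth muscle actin (Acta2), smooth muscle myosin heavy chain (Myh11), its regulatory light chain (Myl9), the kinase that activates it (Mylk), the actin-binding proteins calponin (Cnn1) and transgelin (Tagln), and the intermediate filament protein desmin (Des). Acta2 (ENSMUSG00000035783, chr19:34241090-34255590, minus strand) stood at 44.4, 112 and 232 CPM in PBS and at 441, 172 and 387 CPM in PTZ. PTZ-1 and PTZ-4 were above every PBS library and PTZ-2 was between PBS-2 and PBS-4. The log2 fold change was 1.37 (SE 0.53, edgeR adjusted p = 0.664).

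Contractile genes are known to be driven by serum response factor and myocardin through the CArG box. The RefSeq promoter table (GRCm38.p6) held 25 of the 33 genes and 5 of the 7 contractile genes. Myh11 and Tagln were not in it and could not be searched. The 250 bases upstream of each start were searched on both strands for the CArG box, for the same box with 1 letter of its core changed, a form chosen after the first search, and for TGGGAA, the core bound by the Notch partner RBPJ. The exact box was in 1 of the 25 genes, Myl9, and in 1.62% of the 27025 genes in the table. The relaxed box was in 4 of the 25, Acta2, Myl9, Gper1 and Tbx18, and in 9.78% of all genes. TGGGAA was in 7 of the 25 and in 24.1% of all genes, and in Acta2 it overlaps a relaxed box. The sequences printed here are those of the contractile genes with a box, Acta2 (chr19:34255374-34255623, minus strand) and Myl9 (chr2:156775214-156775463, plus strand), and that of Cnn1 (chr9:22099003-22099252, plus strand), which had the largest contractile fold change and holds neither box in this window. Capitals mark exact or relaxed CArG boxes, which start at -84 and -34 in Acta2 and at -161 and -99 in Myl9.
Acta2: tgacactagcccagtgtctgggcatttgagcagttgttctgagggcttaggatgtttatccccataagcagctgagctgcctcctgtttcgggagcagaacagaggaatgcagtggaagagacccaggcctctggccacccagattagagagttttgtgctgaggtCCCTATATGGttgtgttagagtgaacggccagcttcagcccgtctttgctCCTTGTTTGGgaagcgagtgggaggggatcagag
Myl9: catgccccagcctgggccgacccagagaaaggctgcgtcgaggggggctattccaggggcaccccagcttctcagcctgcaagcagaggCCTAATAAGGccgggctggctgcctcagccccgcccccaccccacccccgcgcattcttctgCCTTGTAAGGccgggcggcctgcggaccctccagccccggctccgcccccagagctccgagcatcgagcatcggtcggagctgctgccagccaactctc
Cnn1: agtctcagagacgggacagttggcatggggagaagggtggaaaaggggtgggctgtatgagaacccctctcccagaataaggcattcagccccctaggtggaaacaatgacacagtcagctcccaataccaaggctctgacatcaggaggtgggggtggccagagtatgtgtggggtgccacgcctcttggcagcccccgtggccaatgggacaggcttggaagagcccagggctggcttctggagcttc
A match of letters is a description of the sequence, and the presence or lack of a box says nothing here about binding.

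Myh11 stood at 15.6, 51.8 and 82.4 CPM in PBS and at 180, 56.1 and 95.1 CPM in PTZ (1.15, SE 0.55, edgeR adjusted p = 0.6999). Myl9 stood at 148, 408 and 414 CPM in PBS and at 715, 319 and 733 CPM in PTZ (0.87, SE 0.43, edgeR adjusted p = 0.6999). Both again had PTZ-1 and PTZ-4 at the top, and PBS-1 at the bottom. Cnn1 stood at 4.37, 2.67 and 1.66 CPM in PBS and at 21.7, 4.37 and 10.6 CPM in PTZ, the largest fold change of the 6 tested contractile genes (2.07, SE 0.67, edgeR adjusted p = 0.634). PTZ-2 and PBS-1 were level for Cnn1, and the other PTZ libraries were higher. Des stood at 2.50, 12.3 and 3.401 CPM in PBS and at 33.4, 8.24 and 8.57 CPM in PTZ, so that only PTZ-1 was above every PBS library (1.47, SE 0.73).

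Mylk differed from the other contractile genes in its spread. It stood at 288, 423 and 328 CPM in PBS and at 431, 468 and 363 CPM in PTZ, with PTZ-2 and not PTZ-1 at the top and a narrow range over all 6 libraries (0.28, SE 0.24, edgeR adjusted p = 0.823). Mylk is not restricted to smooth muscle, since its long form is made by endothelial cells as well.

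Tagln gave almost no reads. It is usually among the most abundant smooth muscle transcripts, yet it was counted at 2, 3 and 3 reads in PBS and at 10, 3 and 10 reads in PTZ. In the GENCODE M21 annotation of GRCm38, 67.9% of the exon bases of Tagln (chr9:45929619-45936058, minus strand) lie in exons of genes on the opposite strand, the largest overlap being with Gm48529. Pln, which encodes phospholamban, the inhibitor of the calcium pump of the sarcoplasmic reticulum, had 64.7% of its exon bases in exons of opposite-strand genes, the largest overlap being with Gm47644 (Pln lies at chr10:53337667-53345987, plus strand). It was counted at 3, 7 and 8 reads in PBS and at 111, 9 and 32 in PTZ. The next most overlapped gene of the set was Tbx18 with 20.6%, and the other 30 genes had at most 6.85%. The labels do not say whether strand was used in the counting, and the part of this overlap in the low counts was not tested. For both genes PTZ-1 and PTZ-4 held the highest counts.

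**Figure D2:**
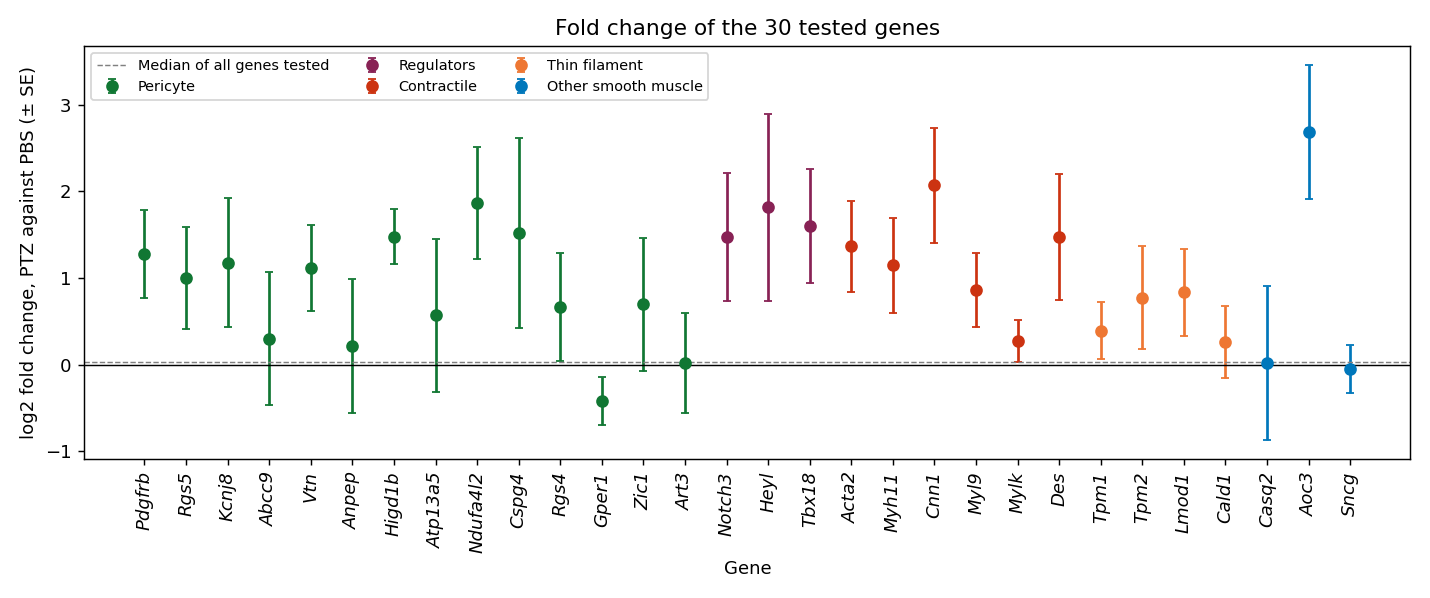
Log2 fold change of PTZ against PBS with its SE for the 30 tested genes, coloured by role. The solid line marks 0 and the dashed line the median of all 13768 genes tested, 0.03. The points run from Gper1 at -0.41 to Aoc3 at 2.69, and Art3, Casq2 and Sncg lie beside 0.

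The genes of the thin filament had smaller differences. Tropomyosins (Tpm1, Tpm2) lie along actin filaments, caldesmon (Cald1) restrains myosin there, and leiomodin (Lmod1) nucleates smooth muscle actin filaments. Lmod1 stood at 9.56, 42.4 and 46.9 CPM in PBS and at 59.5, 38.3 and 78.0 CPM in PTZ (0.83, SE 0.50). Tpm2 ranged from 15.6 to 138 CPM in PBS and from 97.9 to 203 CPM in PTZ (0.77, SE 0.59). Tpm1 (0.39, SE 0.33) and Cald1 (0.26, SE 0.41) are made by many cell types, and their groups overlapped. PBS-1 was the lowest library and PTZ-4 the highest for all 4 genes. Without PBS-1 the value of Cald1 was -0.082, and without PTZ-4 it was -0.03.

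Among the other smooth muscle genes Aoc3 stood out. It encodes vascular adhesion protein 1, an amine oxidase on the surface of smooth muscle cells. Aoc3 stood at 1.44, 1.18 and 1.97 CPM in PBS and at 15.7, 1.89 and 12.1 CPM in PTZ. PTZ-1 and PTZ-4 were far above every PBS library, and PTZ-2 lay just under the highest of them. The log2 fold change of 2.69 (SE 0.78, edgeR adjusted p = 0.577) was the largest of the set. Map3k7cl, a gene of arterial smooth muscle, was counted at 2, 1 and 5 reads in PBS and at 26, 2 and 29 reads in PTZ, the same order at the limit of detection.

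Casq2 and Sncg did not follow that order. Casq2, a calcium-binding protein of the sarcoplasmic reticulum, was highest in PBS-4 at 44.8 CPM and next in PTZ-4 at 39.8 CPM, against 2.19 to 11.8 CPM in the other libraries (0.02, SE 0.89). The libraries numbered 4 were thus high in both groups. Sncg, gamma-synuclein, which neurons also make, stood at 89.4 to 166 CPM in PBS and 90.3 to 152 CPM in PTZ (-0.05, SE 0.28).

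Set beside each other, the pericyte genes and the contractile genes were high in the same PTZ libraries. The 14 pericyte genes summed to 242, 274 and 428 CPM in PBS-1, PBS-2 and PBS-4 and to 693, 254 and 723 CPM in PTZ-1, PTZ-2 and PTZ-4. The 7 contractile genes summed to 503, 1011 and 1061 CPM in PBS and to 1824, 1028 and 1598 CPM in PTZ. For both sums PTZ-1 and PTZ-4 were above every PBS library, and PTZ-2 was not. The contractile sum was 2.08, 3.69 and 2.48 times the pericyte sum in PBS and 2.63, 4.04 and 2.21 times in PTZ. That ratio overlapped between the groups and was highest in the libraries numbered 2 of each group. The contractile sum rests mainly on Myl9, Mylk and Acta2, and the pericyte sum on Rgs5, Vtn and Gper1. Mylk, which endothelial cells also make, had a mean of 346 CPM in PBS and 420 CPM in PTZ. Gper1 had means of 78.2 CPM in PBS and 58.7 CPM in PTZ, opposite in direction to the pericyte sum. The log2 ratio of the PTZ mean to the PBS mean was 0.82 for the pericyte genes and 0.79 for the contractile genes.

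Within replicate numbers both sums were higher in PTZ by over 1.5 times in pairs 1 and 4 and near level in pair 2. The summed pericyte level was 2.86-fold higher in PTZ-1 than in PBS-1 and 1.69-fold higher in PTZ-4 than in PBS-4. PTZ-2 stood at 0.928 times PBS-2, and within that sum Gper1 was at 94.6 CPM in PBS-2 and 75.6 CPM in PTZ-2. The summed contractile level was 3.63, 1.02 and 1.51 times that of PBS in pairs 1, 2 and 4. Of the 30 tested genes, 28 were higher in PTZ within pair 1, 15 within pair 2 and 23 within pair 4, where 52.7%, 50.5% and 49.5% of all tested genes were. Within all 3 pairs 12 of the 30 were higher (18.5% of all tested genes), among them Higd1b, Ndufa4l2, Pdgfrb, Acta2, Cnn1, Notch3 and Aoc3. The median log2 ratio of the mural genes was 2.04 in pair 1, 0.02 in pair 2 and 0.64 in pair 4.

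**Figure D3:**
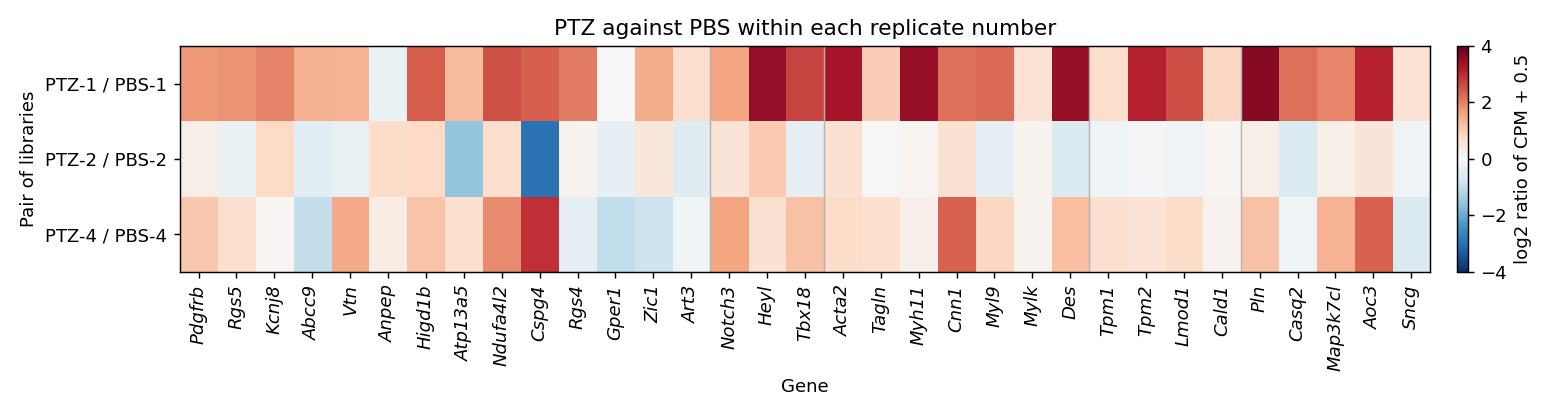
Log2 ratio of PTZ to PBS (CPM + 0.5) for each of the 33 genes within each replicate number, in red where PTZ is higher and in blue where PBS is higher. The first row is red for nearly all genes and the last row is mostly light red. The middle row is pale except for Cspg4 at -2.96 and Atp13a5 at -1.58, which rest on 3 and 5 reads in PTZ-2.

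PTZ-1 and PTZ-4 were the highest libraries of the 6 for 16 of the 30 tested genes, a share of 53.3%, where 11.6% of all tested genes had that order. PBS-1 was the lowest library for 17 of the 30, and for 2130 of the 13768 genes tested. Both orders were chosen after the values were seen and are given as a description. The number of mural genes higher at an unadjusted p under 0.05 depended on single libraries of both groups. In place of 8 of 30 (3.83% of all tested genes) it was 3 of 31 without PTZ-1 (2.76%), 5 of 30 without PTZ-4 (3.67%) and 15 of 32 without PTZ-2 (4.57%). Without PTZ-2, 1 mural gene was lower, and the share of all genes called lower was 6.48%. It was 4 of 32 without PBS-1 (3.16% of all tested genes), 5 of 32 without PBS-2 (3.91%) and 12 of 32 without PBS-4 (2.54%). In edgeR without the filter on low reads it was 16 of 33 (3.96%). The median log2 fold change of the tested mural genes was 0.60 without PTZ-1, 0.75 without PTZ-4 and 1.36 without PTZ-2.

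Markers of some other cells were high in the same libraries as the mural genes. Fibroblast markers, 15 in number, summed to 165 to 239.5 CPM in PBS and to 423, 228 and 449 CPM in PTZ-1, PTZ-2 and PTZ-4. Of the 13 tested, 12 had a positive value (median 1.35), where 52.7% of all tested genes did. PTZ-1 and PTZ-4 were the highest libraries for 8 of those 13, where 11.6% of all tested genes had that order. Col1a1 had reads in every library, and Dpep1 was at 0 in PBS-1 and PBS-4. For the endothelial sum PTZ-1 was the lowest of the 6 libraries and PTZ-2 the highest. Microglia markers were lower in PTZ for all 12 members by fold change, where 6510 of the 13768 genes tested were. Their values ran from -0.96 to -0.0086 (median -0.43). Every PTZ library was below every PBS library for 2 of the 12, where 7.04% of all tested genes were. The sums were 3365 to 4315 CPM in PBS and 2315 to 3402.5 CPM in PTZ. PTZ-1 also had the highest share of reads in no annotated feature, 9.34% against 2.99% to 5.19% in the others. The part of these in the mural difference was not tested.

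**Figure D4:**
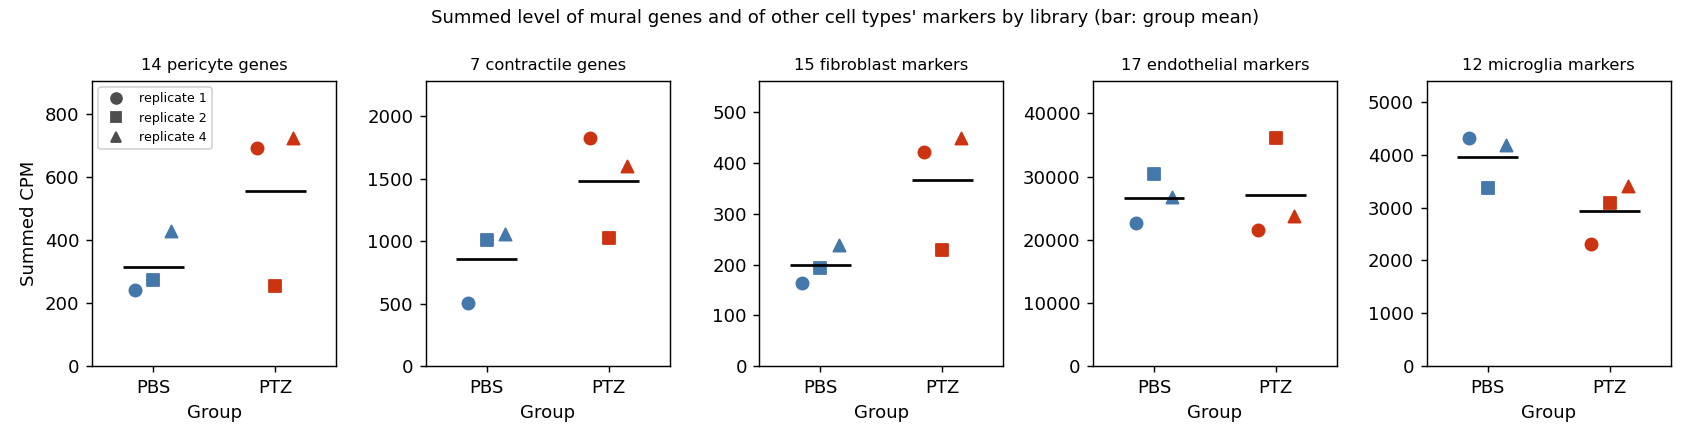
Summed CPM per library of the 14 pericyte genes, the 7 contractile genes and the markers of fibroblasts, endothelium and microglia, with a bar at each group mean and axes from 0. The PTZ circle and triangle (replicates 1 and 4) are above all PBS points for the pericyte, contractile and fibroblast sums, and the PTZ square (replicate 2) is at 254, 1028 and 228 CPM.

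Compared per kilobase of exon, which allows levels to be set side by side between genes, the mean ran from Myl9 at 278 CPM per kb down to Tagln at 0.109 in PBS and from 507 to 0.278 in PTZ. In PBS, Sncg (153), Acta2 (58.97), Cald1 (54.4) and Tpm1 (39.8) came after Myl9. In PTZ the order after Myl9 was Acta2 (152), Sncg (148), Vtn (76.9) and Higd1b (71.3). Rgs5 stood below Gper1 in PBS, at 17.9 against 30.8 CPM per kb, and above it in PTZ, at 35.9 against 23.1. Pdgfrb and Des were level in PBS at 1.62 CPM per kb, and in PTZ they stood at 3.93 and 4.46. Notch3 (0.255 and 0.7099), Cspg4 (0.266 and 0.758) and Abcc9 (0.399 and 0.492) were near the lower end in PBS and PTZ. The endothelial genes Cldn5 (574 and 643) and Pecam1 (88.8 and 103) are given on the same scale. No test was made of the order.

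Signalling between endothelium and mural cells was read from a mixed list of 40 genes, all tested. The list holds ligands, receptors, Smad and Notch pathway factors and a few other genes. Their median was 0.20 beside 0.03 for all genes, and no gene passed after adjustment. The unadjusted threshold of 0.05 was met by 2 of the 40 as higher in PTZ and 0 as lower, near the 3.83% and 3.38% of all tested genes. Tgfb3, a transforming growth factor, stood at 0.812, 1.78 and 2.87 CPM in PBS and at 16.3, 3.87 and 8.14 CPM in PTZ, with no overlap (2.38, SE 0.73, edgeR adjusted p = 0.619). The other was Angpt1, angiopoietin 1, a mural ligand of the endothelial receptor Tie2, named after its values were seen since its mean lies under the 5 CPM set for naming. It stood at 2.62, 1.58 and 2.57 CPM in PBS and at 5.197, 6.35 and 7.198 CPM in PTZ, with every PTZ library, PTZ-2 included, above PBS (1.46, SE 0.61, edgeR adjusted p = 0.690). Pdgfb, the ligand of Pdgfrb, stood at 190.2, 157 and 216 CPM in PBS and at 95.0, 115 and 169.8 CPM in PTZ, lower in mean with PTZ-4 inside the PBS range (-0.57, SE 0.26, edgeR adjusted p = 0.690). Ligand and receptor thus had fold changes of opposite sign. Edn1, the vasoconstrictor endothelin 1, stood at 152 ± 23.6 CPM in PBS and 209 ± 45.1 CPM in PTZ, with no overlap (0.46, SE 0.23). Every PTZ library was above every PBS library for 5 of the 40 and below for 0, where 7.3% and 7.04% of all tested genes were. Tgfbr3 (0.53, SE 0.26) and Pdgfra (1.35, SE 0.62), the latter also a marker of fibroblasts and oligodendrocyte precursors, had positive values with groups that overlapped. Hbegf (-0.25, SE 0.33), the Notch target Hes1 (-0.14, SE 0.23) and Tgfbr1 (-0.12, SE 0.31) had small negative values.

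Further smooth muscle genes, 40 tested of 43, had a median of 0.35, and 3 of the 40 met the unadjusted threshold as higher and 0 as lower, where 3.83% and 3.38% of all tested genes did. Ppp1r12b, a targeting subunit of myosin phosphatase, stood at 5.75, 4.05 and 4.31 CPM in PBS and at 21.4, 7.45 and 15.5 CPM in PTZ (1.65, SE 0.49, edgeR adjusted p = 0.601). Synm, the intermediate filament protein synemin that pairs with desmin, stood at 168, 194 and 192 CPM in PBS and at 343, 255 and 254 CPM in PTZ (0.62, SE 0.22). For both, every PTZ library lay above every PBS library. Nrip2 (2.17, SE 0.96) had the same order by a narrow gap. It had 42 reads in both PBS-2 (4.15 CPM) and PTZ-2 (4.17 CPM). That order was found for 3 of the 40 and the reverse for 1, where 7.3% and 7.04% of all tested genes had them. The filamin gene Flna (0.70, SE 0.34) was high in PTZ-1. The tropomyosin gene Tpm3 stood at 709.8, 590.1 and 728 CPM in PBS and at 442, 545 and 574 CPM in PTZ. Its PTZ libraries were all below every PBS library (-0.38, SE 0.24). Csrp2 stood at -0.26 (SE 0.20), Pdlim7 at -0.18 (SE 0.26) and Cnn2 at -0.11 (SE 0.27).

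Further pericyte genes, 27 tested of 30, had a median of 0.45, and 6 of the 27 met the unadjusted threshold as higher and 1 as lower, where 3.83% and 3.38% of all tested genes did. Slc20a2, a phosphate transporter, stood at 9.43, 7.50 and 5.14 CPM in PBS and at 13.2, 14.2 and 21.7 CPM in PTZ (1.15, SE 0.41). Here PTZ-2 was above every PBS library, unlike its place for most mural genes. Pde5a, the cyclic GMP phosphodiesterase of smooth muscle and pericytes, stood at 12.2, 10.1 and 12.2 CPM in PBS and at 41.0, 12.7 and 22.4 CPM in PTZ (1.14, SE 0.42). Itga1 (0.61, SE 0.23) and Gja4 (1.08, SE 0.42), which is also a connexin of arterial endothelium, had no overlap either. Every PTZ library lay above every PBS library for 6 of the 27 and below for 0, where 7.3% and 7.04% of all tested genes did. Gja4 was highest in PTZ-2 at 512 CPM. Olfml3, which microglia also make, was the gene with a negative value at that threshold (-0.67, SE 0.29), and Slc19a1 stood at -0.15 (SE 0.62).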

How the data were processed

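RNA of brain endothelial cells was measured in 6 libraries, 3 per group. The authors deposited raw read counts per Ensembl gene, per the file headers, and for each library a second file of scaled signal, in which the deposited value equals the count over a factor of that library (100% whole within 0.01 reads when multiplied back), used only as an alternative scaling. Tools listed, per the submitters' processing notes, are TopHat2 2.1.1, HTSeq, CASAVA and edgeR, with the build GRCm38. No annotation release is stated there. Summary rows that name no gene, 16.06% to 22.93% of reads, were left out. Coordinates come from GENCODE M21 and symbols matched 53274 IDs.

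Counts were analysed with edgeR 4.0.16 in R 4.3.3, and alternatives with DESeq2 1.42.0 and limma 3.58.1. filterByExpr (minimum count 10) kept 13768 of 34777 genes with a read. TMM factors were 0.864 to 1.14, and the biological coefficient of variation was 0.470. The test was edgeR's quasi-likelihood test on the group term, 2-sided, adjusted by Benjamini-Hochberg with a threshold of 0.05. Ratios within pairs used CPM + 0.5. Tested on simulated counts of the 13768 genes of this comparison, it found 9 of 100 genes with a 2-fold change, 68 of 100 with a 4-fold change and 3 unchanged genes, with the changed genes drawn at a mean of at least 5 CPM.

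Deviations from group means correlated across genes at 0.167, 0.197 and 0.217 for same-numbered libraries, and at -0.127 to -0.062 for the rest. The deviations of the 3 libraries of a group sum to 0 for each gene. Positive values for same-numbered libraries thus require negative ones among the rest, which are no separate sign of pairing. Since every pair was over 0.1, same-numbered libraries were taken as pairs, on the data alone, for the ratios within replicate numbers. The fold changes, SEs and p-values of the main fit use the group only and are not paired. The replicate block was run as an alternative. With it, 8 of 30 mural genes were higher at an unadjusted edgeR p under 0.05, where 5.59% of all tested genes were. Replicates differed by more than sampling noise (chi-square per degree of freedom 48.5 to 115). The members and lists were chosen with earlier results of these data known, so no list was tested as a list. Given with every library were the 7 contractile genes, Pdgfrb, Rgs5, Kcnj8, Abcc9, Vtn, Notch3 and the 8 others with the smallest p. From each further list up to 4 genes per direction with at least 5 CPM were named by smallest p.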

Additional observations from a re-analysis of the deposited data

How the results depend on the processing

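Of the 30 tested mural genes, 22 kept their direction in each alternative that gave them a value. There were 15 alternatives, and 6 of the genes had a value in all but the filter at a mean of 5 CPM, which removed them. No mural gene passed an adjusted p of 0.05 in the edgeR fit, and 0 passed with the replicate number as a block, which gave 26 of 30 positive values and 0 calls over all genes. The exceptions were DESeq2, where 1 passed (Higd1b), and edgeR without the low-count filter, where 5 passed (Vtn, Myh11, Higd1b, Acta2 and Ndufa4l2). Over all genes DESeq2 called 53 higher and 23 lower, edgeR without the filter 77 and 44, limma-voom 1 and 0, limma on the authors' scaled values 1 and 0, and edgeR without both libraries numbered 2, added after seeing the data, 3 and 0. Leaving out 1 library at a time gave 0 to 8 genes higher, the 8 without PBS-2. In at least 1 alternative 8 genes changed direction. They were not all near 0 or low, since Cald1 had a mean of 720 CPM (0.26) and Zic1 a main value of 0.70. Abcc9 stood at -0.052 on the authors' scaled values and at -0.039 with the replicate block. Art3 stood at -0.070 on the scaled values, -0.016 without the filter and -0.0054 with the replicate block. Sncg stood at 0.0095 without both libraries numbered 2. With 1 library left out, Abcc9 ranged from -0.75 to 0.62, Anpep from -0.15 to 0.54, Atp13a5 from -0.20 to 1.03, Zic1 from -0.54 to 1.05, Art3 from -0.30 to 0.50, Cald1 from -0.082 to 0.62, Casq2 from -1.03 to 1.57 and Sncg from -0.26 to 0.14. The summed levels kept their direction, at 0.59 to 1.17 (log2) for pericyte genes and 0.52 to 0.995 for contractile genes with 1 library left out. The cause was not tested. Tagln, Pln, Map3k7cl and Heyl rest on few reads in PBS. Cspg4 had 9 reads in PBS-4 and 3 in PTZ-2, and Atp13a5 had 5 in PTZ-2. Few reads limit the precision of all these values, and why the counts are low was not tested.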
